A study of Mus musculus with 13 samples.

Results

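The genes described here are 45 that license, start and carry out DNA replication, out of 12270 genes tested. The list was chosen with earlier results of these data known, so its shares beside those of all genes are descriptions. Probe sets were found by symbol in the platform annotation, and all 99 carrying 1 of these symbols alone were read. Of these probe sets, 85 passed a filter on dim signals, and all 45 genes kept at least 1. Each gene is represented by its brightest passing probe set unless another is named.

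RNA from 13 mice was hybridised to 1 Affymetrix array each: 6 primary medulloblastomas of Ptch1(+/-) mice, 3 preparations of wild-type cerebellar granule neuron precursors taken on postnatal day 7 (GNPC), and 4 wild-type dorsal brainstems taken at E16.5 (DBS). Medulloblastoma is a malignant tumour of the hindbrain, Ptch1 encodes the receptor that restrains the hedgehog pathway, and granule neuron precursors are the cerebellar cells that divide in response to Sonic hedgehog after birth. No sample was treated, and the labels give no strain, sex, batch or age of the tumour mice, so batches and groups cannot be told apart here. Both normal tissues differ in age as well as in place, and the labels do not say how the precursor cells were purified. Markers of other cells were bright in GNPC, with means of 14500 for Calb1 (Purkinje cells) and 17680 for Mbp (oligodendrocytes). Zic1, a marker of granule neuron precursors, had a mean of 20140 there. GNPC samples are therefore not read as precursors alone.

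Before a cell copies its DNA, the origin recognition complex (ORC) marks start sites, and Cdc6 and Cdt1 load the ring-shaped MCM2-7 helicase onto them. This step, licensing, is restricted to the time before S phase, and geminin blocks Cdt1 afterwards. Kinases, Cdc45, the GINS complex and Mcm10 then activate the helicase, and polymerases, the sliding clamp PCNA, the single-strand binding protein RPA and a supply of deoxynucleotides carry the fork forward. Many of these genes are known targets of E2F transcription factors.

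Promoters of the members were read for 4 eight-letter words of the E2F consensus, TTTCCCGC, TTTGGCGC, TTTGCCGC and TTTCGCGC, on both strands, since the genes are compared as a set. RefSeq promoters on GRCm38.p6, from 250 bases before to 50 bases after the start site, were given for 37 of the 45 genes. At least 1 word was present in 14 of them (37.8%), against 2.6% of 27025 genes and 4.67% of 9932 tested genes with a promoter. For 9 members (24.3%) a word lay wholly upstream of the start site, against 2.16% and 3.87%. Other replication genes held a word in 9 of 40 promoters (22.5%) and mitosis genes in 1 of 25 (4%). The stretches below are those of the 6 members with an upstream word that were called higher in tumours against both normal tissues (defined below). Capitals mark the words, which may stand on either strand, and where TTTCGCGC and TTTGGCGC overlap on opposite strands in Mcm5 and Mcm6 the capitals run over both. A match describes letters only, and binding was not measured.
Mcm5, chr8:75109330-75109393, plus strand: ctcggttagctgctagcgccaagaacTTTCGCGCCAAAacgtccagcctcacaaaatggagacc
Mcm6, chr1:128359719-128359841, minus strand: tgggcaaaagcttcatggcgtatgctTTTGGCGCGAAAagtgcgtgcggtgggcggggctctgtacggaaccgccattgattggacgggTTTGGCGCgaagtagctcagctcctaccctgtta
Mcm7, chr5:138172015-138172074, minus strand: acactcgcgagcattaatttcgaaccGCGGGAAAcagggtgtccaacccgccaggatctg
Orc1, chr4:108579401-108579453, plus strand: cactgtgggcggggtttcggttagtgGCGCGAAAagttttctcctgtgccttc
Cdc6, chr11:98907987-98908046, plus strand: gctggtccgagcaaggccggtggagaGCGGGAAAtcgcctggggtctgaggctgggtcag
Pola1, chrX:93632260-93632319, minus strand: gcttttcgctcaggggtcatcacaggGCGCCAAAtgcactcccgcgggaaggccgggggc

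The other members with a word were Mcm3, Orc3, Cdt1, Gins3, Rfc3, Pold1, Pole2 and Lig1. Among the 14 genes with a word the median log2 difference between tumours and GNPC was 1.38, and among the 23 without one it was 1.11. Against DBS the medians were 2.96 and 2.27. The ranges of both sets overlapped in each comparison, and the largest differences, of Mcm2 against GNPC and of Tk1 against DBS, belonged to genes without a word. Mcm6 carried 3 words, the most upstream of the start site of any member.

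Values are MAS5 intensities on a linear scale, with array medians between 91.3 and 117.5. Differences were tested with limma on log2(intensity + 18), and "called" means an adjusted p under 0.05 with a difference of at least 1 on that scale, a 2-fold change. Folds on this scale understate the change of dim genes. The Ptch1 probe set ranged from 3454 to 11575 in tumours, 5563 to 6972 in GNPC and 5569 to 6134 in DBS, and it checks nothing about the labels because the sources used here do not say which exons are deleted. Summed markers of granule neuron precursors ran from 55490 to 59309 in tumours, 45601 to 53836 in GNPC and 14731 to 20144 in DBS. Against GNPC, 1 of these 7 markers was called higher in tumours, 3 had a positive difference and their median log2 difference was -0.03, while most of the DBS sum was Zic1, with a mean of 15340 there. Brainstem markers ran from 69.3 to 339, from 1555 to 2404 and from 22794 to 28565. The log2 ratio of 3' to 5' control probe sets, a sign of RNA integrity, was 1.39 ± 0.10 (SD, n = 6) in tumours, 1.16 ± 0.05 (SD, n = 3) in GNPC and 1.75 ± 0.50 (SD, n = 4) in DBS. It was higher in tumours than in GNPC by 0.23 (exact two-sided permutation p = 0.0119, the smallest this design allows, adjusted 0.0357). DBS 2 stood apart at 2.43, while the other DBS samples lay between 1.23 and 1.70, so the counts against DBS, and the genes it moves most, are given with and without it. Leaving it out moved the difference from DBS by 0.49 for Fen1, 0.26 for Pcna and at most 0.16 for any other of the 45 genes, with a median of 0.05.

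By their brightest probe sets, all 45 replication genes had a higher mean in tumours than in GNPC. Every tumour lay above every GNPC sample for each of them, a separation seen in 21% of all genes tested. Tumours and GNPC did overlap by at least 1 dimmer passing probe set of Orc3, Orc4, Cdc7, Cdc45, Gins1, Pola2 and Rrm2. Of the 45, 29 were called higher, against 6.59% of all genes, and 0 were called lower, against 14.2%. With limma, 0 of the 45 were lower at an unadjusted p under 0.05 either. The median log2 difference was 1.18, against -0.03 over all genes, and the members ranged from 0.38 for Orc4 to 2.09 for Mcm2. An adjusted p under 0.05 without the fold minimum was met by 44 of the 45 (22.8% of all genes), with Fen1 the exception. When array medians were made equal, the median over all genes moved from -0.03 to 0.21, that of the 45 genes to 1.42, and 37 were called higher, against 10.7% of all genes. Over all genes, calls split 809 higher to 1743 lower as deposited and 1309 to 1375 under that scaling.

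Against DBS, 41 of the 45 genes were called higher in tumours (15.5% of all genes) and 0 lower (20.9%), and 0 were lower at an unadjusted p under 0.05 by limma. Their median log2 difference was 2.37, against 0.00 over all genes, and 43 did not overlap (27.2%). Without the fold minimum 44 passed the adjusted p (34.9%), again with Fen1 the exception. Orc4, Orc5, Cdc7 and Fen1 were the 4 not called. Without DBS 2 the count was 42 and the median 2.39.

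Between the normal tissues, 25 of the 45 genes were called higher in GNPC than in DBS (8.73% of all genes) and 0 lower (9.68%), with 0 lower at an unadjusted p under 0.05 by limma. Without the fold minimum 37 passed (23.1%). The median was 1.10, against 0.04 over all genes, and in 38 genes every GNPC sample lay above every DBS sample (28.6%). Without DBS 2 the count was 26 and the median 1.11. The 3 comparisons share samples, so their values are given side by side and are not independent of each other.

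Group means were ordered DBS, GNPC, tumours in 42 of the 45 genes (29.7% of all genes). Every sample followed that order in 38 of them (9.62%), 29 were called higher in tumours against both tissues (5.4%), and 19 were called in all 3 comparisons (2.04%). Orc4, Orc6 and Fen1 were the 3 whose means did not follow it, and in each the lowest mean was that of GNPC. Without DBS 2 the means of 43 genes followed the order, and every sample did in 38. The mean of log2(intensity + 18) over the 45 genes lay between 11 and 11.42 in tumours, 9.88 and 10.13 in GNPC, and 8.79 and 8.95 in DBS, with no overlap between groups. Less RNA per cell and fewer dividing cells cannot be told apart in these bulk samples.

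**Figure D1:**
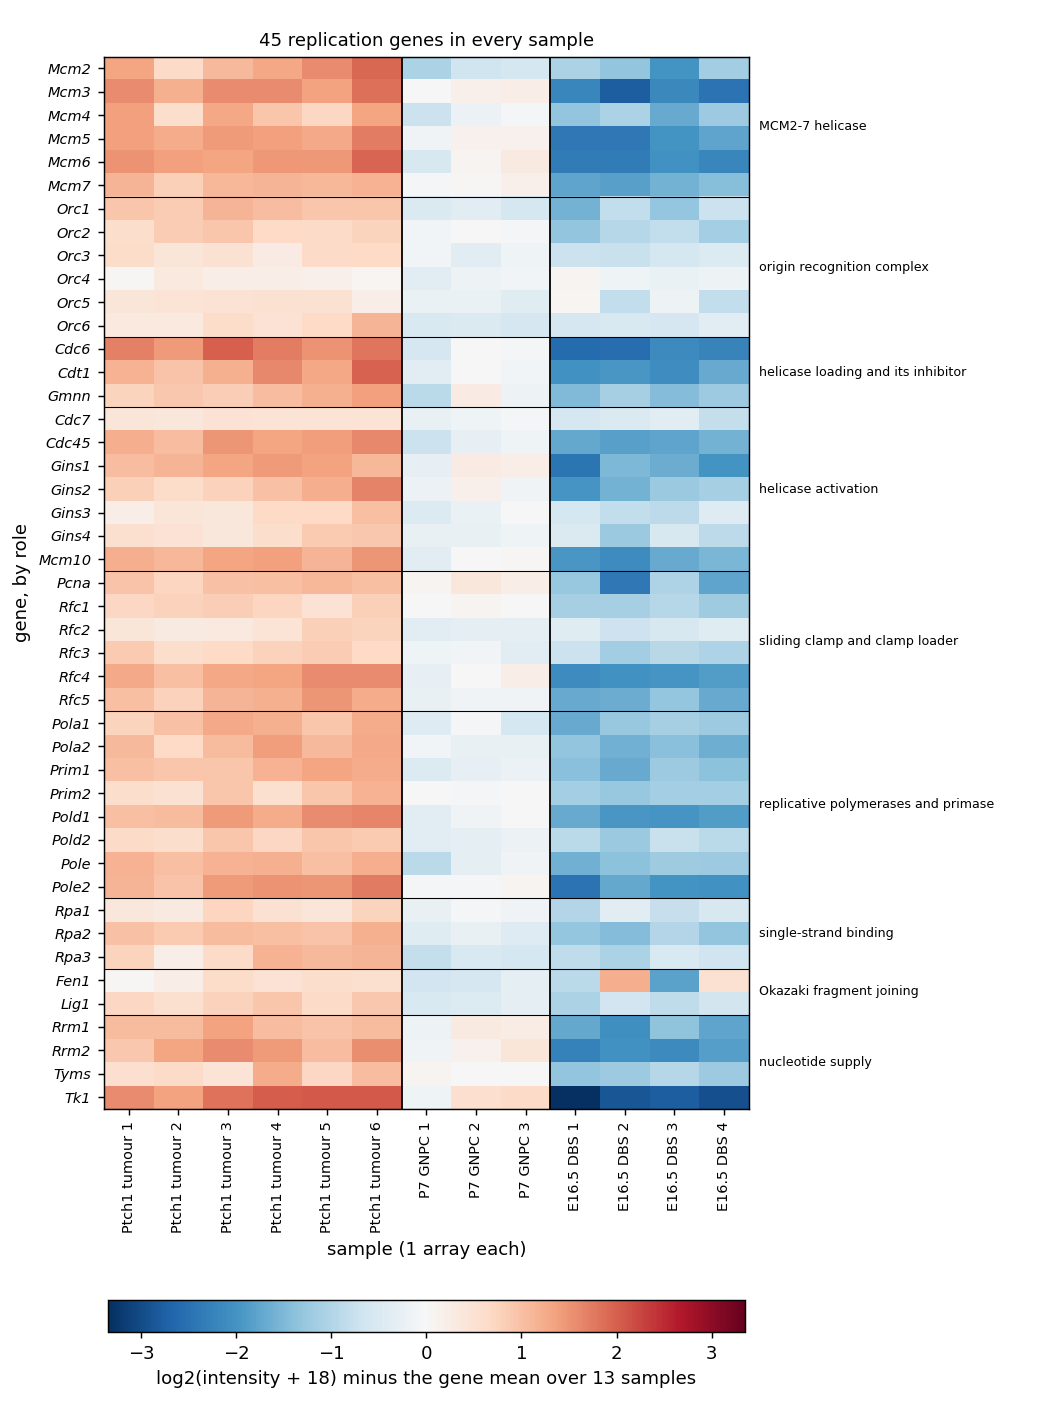
Heat map of the 45 replication genes (one gene per line, ordered by role) in the 13 samples (columns), coloured by log2(intensity + 18) minus the gene's own mean over all samples. Tumours are red in nearly every line and DBS blue, while Orc4 stays near white throughout and Fen1 is red in DBS 2 and 4.

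The MCM2-7 helicase unwinds the parental strands, and all 6 of its subunits were called higher in tumours against both normal tissues. Mcm2 had intensities from 2618 to 6419 in tumours, with a median of 4152. Its GNPC values were 782.5, 1032 and 1106, and its DBS values were 784, 659.5, 398 and 736. Every tumour was more than 2-fold above the highest normal sample, while GNPC and DBS overlapped. Tumours exceeded GNPC by 2.09 ± 0.25 SE on the log2 scale (4.26-fold, limma adjusted p = 1.36e-05), the largest difference of the 45 genes in this comparison.

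Mcm3 separated all 3 groups. Its tumour intensities ran from 3042 to 4793 with a median of 4021. In GNPC it measured 1333, 1489 and 1556, and in DBS 277.5, 178, 283 and 222.5. Tumours were 15.2-fold above DBS (log2 difference 3.92 ± 0.15 SE, limma adjusted p = 2.46e-11), and GNPC was 5.79-fold above DBS (adjusted p = 7.88e-08). Mcm5, Mcm6 and Mcm7 showed the same order in every sample, with log2 differences between tumours and DBS of 3.54, 3.74 and 2.73. For Mcm4 the difference between GNPC and DBS was 1.0 ± 0.22 SE, just below the fold minimum, and without GNPC 1, DBS 2 or DBS 4 it was 1.2, 1.09 and 1.03 and called.

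Of the 6 subunits of the origin recognition complex, 2 (Orc1 and Orc6) were called higher in tumours against GNPC and 4 against DBS. Orc1, its largest subunit and the one whose amount is known to follow the cell cycle, measured 201.5 to 253 in tumours with a median of 217. In GNPC it was 70, 78.9 and 62.9, and in DBS 23, 51.4, 32.3 and 57.1, all below the median of their arrays. The groups did not overlap. Orc1 passed the filter through the tumours alone, so its separation from the normal tissues is a description and its test gives no support. Its log2 difference depended on the pseudocount, from 0.92 to 1.65 against GNPC and from 1.2 to 2.5 against DBS with pseudocounts of 100 and 1, and the lowest of these was below the fold minimum.

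Orc4 had the smallest difference of the 45 genes from either normal tissue. Its tumour values ran from 1138 to 1390 with a median of 1255, its GNPC values were 862, 973 and 1034, and its DBS values were 1178, 985, 944 and 966. Tumours lay above GNPC without overlap but overlapped DBS, and log2 differences were 0.38 ± 0.11 SE and 0.29 ± 0.10 SE. Orc5, a neighbouring subunit of the same ring, ran from 1635 to 1983 in tumours with a median of 1933, against 1185, 1182 and 1041 in GNPC, and had differences of 0.72 ± 0.17 SE and 0.87 ± 0.16 SE. In DBS its values were split, with 1440.5 and 1238 in samples 1 and 3 and 776 and 778 in samples 2 and 4, and without DBS 1 its difference from DBS was 1.04 and called. Orc6, the smallest subunit, was 2.16-fold above GNPC and 2.15-fold above DBS, while its means in GNPC and DBS were 974 ± 27.7 (SD, n = 3) and 982 ± 63 (SD, n = 4). Without tumour 6 its difference from DBS was 1.0, just short of the minimum.

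Both loading factors and geminin, the inhibitor of Cdt1, were called higher in all 3 comparisons. Cdc6, an ATPase that brings the helicase to ORC, had tumour intensities from 1470 to 2177 with a median of 1765. Its values were 351, 534 and 508 in GNPC and 74.1, 75.6, 106.5 and 98.5 in DBS. No group overlapped another. Tumours were 3.73-fold above GNPC (log2 difference 1.90 ± 0.17 SE, limma adjusted p = 1.23e-06) and 16.8-fold above DBS (4.07 ± 0.15 SE, adjusted p = 2.85e-11). All 4 DBS values lay below the median of their arrays, and with pseudocounts of 100 and 1 the difference from DBS was 3.30 and 4.31.

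Cdt1, which carries the helicase to the origin, reached 11536 in tumour 6 and lay between 5736 and 8975 in the other tumours. Gmnn, which encodes geminin, was uneven in GNPC, with 785, 1811 and 1323 in samples 1 to 3. Its difference between tumours and GNPC was 1.28 ± 0.21 SE, and without GNPC 1 it was 0.95, below the fold minimum. Its call between GNPC and DBS, at 1.04, was lost without GNPC 2 (0.77) or GNPC 3, DBS 1 or DBS 3 (0.99 each).

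**Figure D2:**
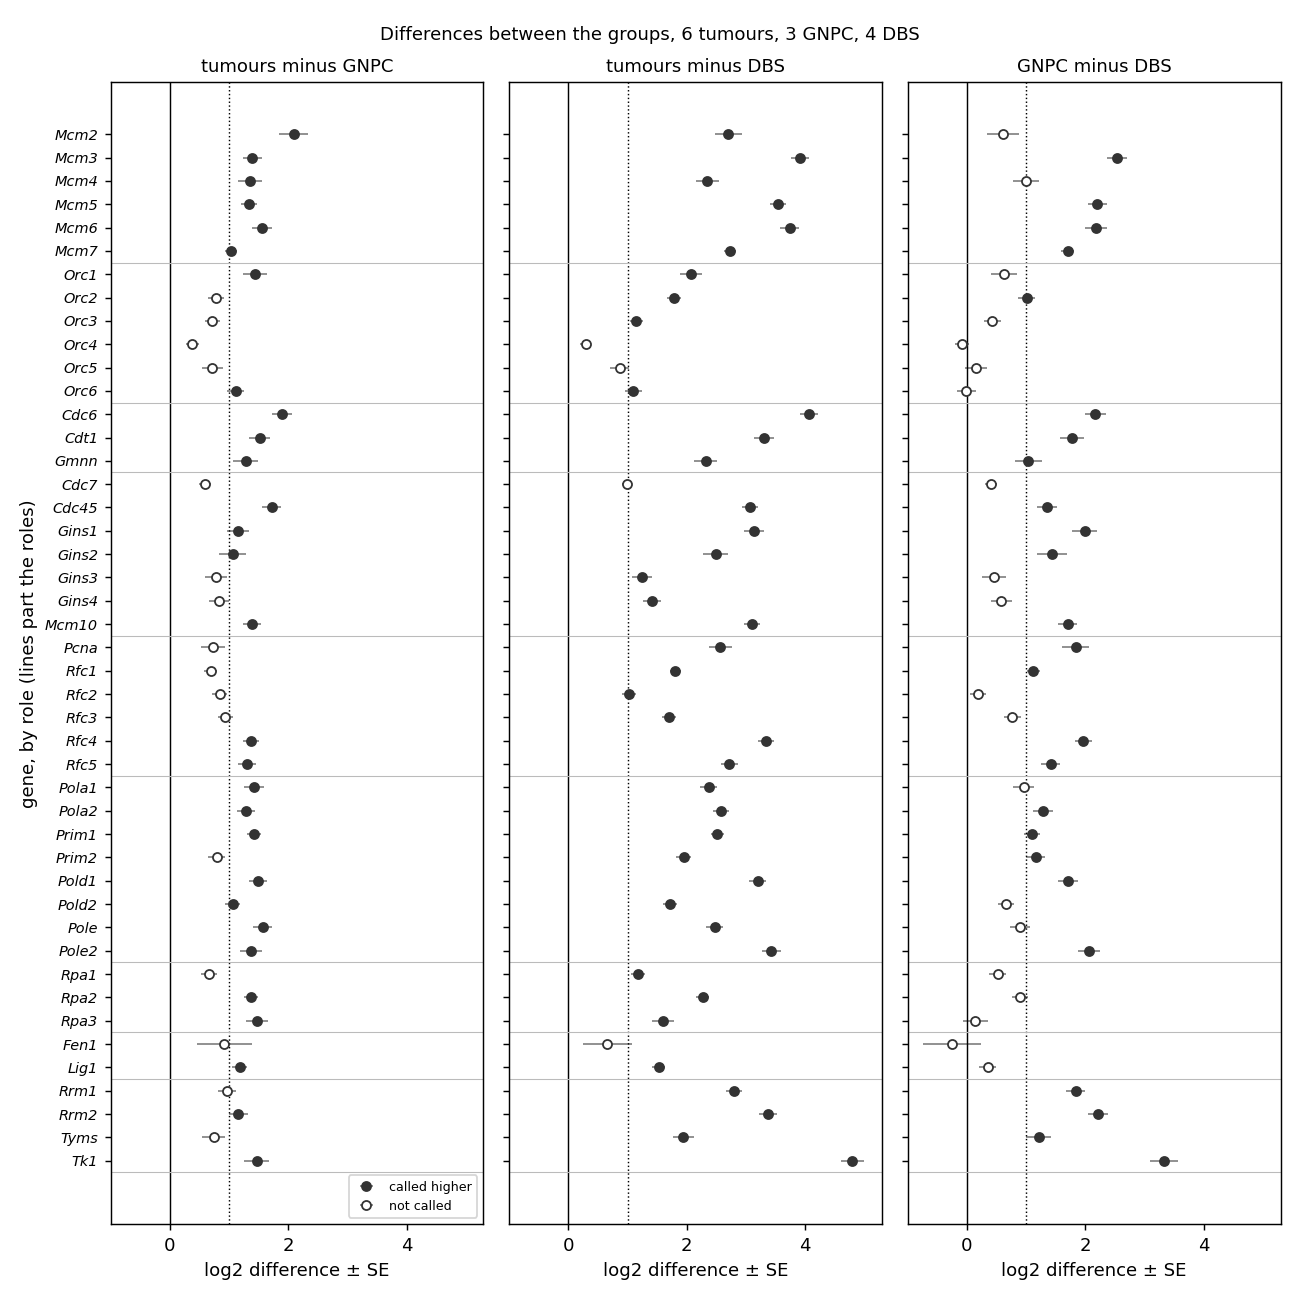
Log2 differences (points, on the log2(intensity + 18) scale) with their standard errors (bars) for the 45 genes in the 3 comparisons; filled points were called higher, open points were not called, and the dotted line marks a difference of 1. Against DBS the tumours show 41 filled points, up to 4.80 for Tk1.

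Of the 7 genes that activate the loaded helicase, 4 were called higher in tumours against GNPC and 6 against DBS. Cdc45, which joins the MCM ring and GINS to form the active helicase, measured 918 to 1373 in tumours with a median of 1144. It was 259.5, 356 and 391 in GNPC and 119, 109.8, 116 and 133 in DBS. The 3 groups were separate. The log2 differences were 1.72 ± 0.16 SE from GNPC and 3.07 ± 0.14 SE from DBS (limma adjusted p = 1.36e-06 and 1.63e-10).

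Gins1, a GINS subunit, had the largest difference from DBS in this group of genes by its brightest probe set. Its tumour values ran from 1645.5 to 2157 around a median of 1898. Its GNPC values were 656.5, 965 and 936, and its DBS values 129.5, 267, 237 and 184. Tumours were 8.84-fold above DBS (limma adjusted p = 1.03e-09) and 2.22-fold above GNPC. The dimmer Gins1 probe set gave a log2 difference of 0.43 ± 0.33 SE from GNPC, not called, and 1.77 ± 0.30 SE from DBS. With the mean of both probe sets these were 0.79, below the fold minimum, and 2.46. Mcm10 was called in all 3 comparisons, with log2 differences of 1.39, 3.10 and 1.70. Gins3 and Gins4 differed from GNPC by 0.78 ± 0.19 SE and 0.83 ± 0.17 SE and were not called there.

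Cdc7, the kinase that phosphorylates the MCM ring to fire origins, was the steadiest member among the tumours, with an SD of 0.04 on the log2 scale. It measured 3517 to 3767 in tumours with a median of 3705. In GNPC it was 2252, 2434 and 2618, and in DBS 1836, 1927, 2066 and 1556. No tumour overlapped a normal sample, yet its differences of 0.59 ± 0.10 SE and 0.99 ± 0.09 SE stayed below the fold minimum. Leaving out tumour 2, DBS 2 or DBS 3 put its difference from DBS at 1.01, 1.02 and 1.05, past the minimum. The dimmer Cdc7 probe set read 88.2 to 136.3 in tumours and overlapped both normal tissues. By it tumours differed from GNPC by 0.01 ± 0.17 SE and from DBS by 0.39 ± 0.16 SE, neither called.

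Of the 6 genes of the sliding clamp and its loader, 2 were called higher in tumours against GNPC and 6 against DBS. Rfc4, a loader subunit, measured 2618 to 3935 in tumours with a median of 3216. It was 1057, 1283 and 1501 in GNPC and 288, 305, 315 and 337 in DBS. The groups were separate, and tumours were 2.58-fold above GNPC and 10.1-fold above DBS (limma adjusted p = 4.43e-06 and 3.59e-11). Rfc1, Rfc2 and Rfc3 lay 0.69, 0.84 and 0.94 above GNPC on the log2 scale and were not called there. Rfc2 was 1.03 above DBS, and without tumour 5, tumour 6 or DBS 2 it was 0.97, 0.98 and 0.96 and no longer called. Its dimmer probe sets gave 0.80 and 0.95 against DBS, and the mean of its probe sets 0.93, none called. Against GNPC the dimmer ones gave 1.12, called, and 0.86, not called.

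Pcna, the clamp that tethers the polymerases, ran from 13973 to 18279 in tumours around a median of 16905. Its GNPC values were 9014, 10997 and 9959. In DBS it was 3500, 1610, 4180 and 2495, lowest in DBS 2, the sample with the highest 3' to 5' ratio. Tumours exceeded GNPC by 0.73 ± 0.21 SE, below the fold minimum, and DBS by 2.57 ± 0.19 SE (limma adjusted p = 2.28e-08). Without DBS 2 the latter difference was 2.31 ± 0.14 SE.

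Of the 8 polymerase and primase genes, 7 were called higher in tumours against GNPC and 8 against DBS, and every sample of each kept the order DBS, GNPC, tumours. Pole, the catalytic subunit of the leading-strand polymerase epsilon, measured 1134 to 1298 in tumours with a median of 1249. It was 286, 443 and 503 in GNPC and 168, 201, 232 and 225.5 in DBS. The difference from GNPC was 1.57 ± 0.16 SE, or 2.97-fold (limma adjusted p = 3.93e-06).

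Pole2, the second subunit of polymerase epsilon, had the largest difference from DBS among these genes. It ran from 1479.5 to 2551 in tumours with a median of 2111. Its GNPC values were 724, 736 and 804, and its DBS values 121, 215, 174 and 171. Tumours were 10.8-fold above DBS (log2 difference 3.43 ± 0.16 SE, limma adjusted p = 2.3e-10). Prim2, the large primase subunit, was the gene not called against GNPC, with 0.79 ± 0.15 SE. Pola2 was called there by its brightest probe set alone. Its dimmer one gave 0.65 ± 0.21 SE and the mean of both 0.97, neither called.

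RPA coats single-stranded DNA, and all 3 of its subunits were called higher against DBS, Rpa2 and Rpa3 also against GNPC, and none between GNPC and DBS by the brightest probe sets. Rpa3 measured 1591 to 3034 in tumours with a median of 2586, against 765, 946 and 897 in GNPC and 740, 642.5, 939.8 and 849.8 in DBS. Both normal tissues overlapped, and tumours stood 2.76-fold above GNPC (limma adjusted p = 2.92e-05). Rpa2 ran from 2082 to 2614 in tumours around a median of 2291, with 859, 957 and 841 in GNPC and 455, 401, 569 and 447 in DBS. Its difference from DBS was 2.27 ± 0.11 SE, the largest of the 3 subunits. By its dimmer probe set, and by the mean of both, Rpa2 was called higher in GNPC than in DBS, with log2 differences of 1.2 and 1.05, where the brighter one gave 0.90. The same dimmer probe set put tumours 0.91 ± 0.17 SE above GNPC, not called.

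Lig1, the ligase that joins Okazaki fragments, was called higher against both normal tissues. It measured 2163 to 2852 in tumours with a median of 2511, 1042, 1090.2 and 1182 in GNPC, and 711, 955, 826 and 979 in DBS. Tumours did not overlap either tissue and stood 2.26-fold above GNPC and 2.89-fold above DBS (limma adjusted p = 5.3e-06 and 2.12e-08).

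Fen1, the nuclease that trims the flap between fragments, was called in no comparison by the probe set used. That probe set read 4788 to 7192 in tumours with a median of 6650.2, and 2956, 3161 and 3746 in GNPC. In DBS it read 2465, 10829, 1324 and 6679, with samples 1 and 3 below every GNPC sample and samples 2 and 4 above them. Tumours differed from DBS by 0.66 ± 0.42 SE, and by 1.15 and called without DBS 2. The other Fen1 probe set read 178.5, 109.5, 150 and 169 in the same DBS samples and 1236 to 1755 in tumours. By that probe set tumours exceeded DBS by 3.23 ± 0.14 SE (limma adjusted p = 1.03e-10) and GNPC by 0.82 ± 0.16 SE. The probe set used carries the _x suffix, by which the maker marks probes that may match other transcripts, and which of the readings reflects Fen1 was not tested. The probe sets used for Mcm4, Mcm5, Pold1 and Rrm2 carry that suffix too.

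All 4 genes of nucleotide supply were called higher in tumours and in GNPC against DBS, and Rrm2 and Tk1 also in tumours against GNPC. Tk1, the thymidine kinase that salvages thymidine in S phase, ran from 1321 to 2180 in tumours around a median of 1991. It measured 457.5, 756 and 801 in GNPC and 33.5, 54.1, 58.9 and 50.3 in DBS, where it lay below the median of its arrays. Tumours were 27.9-fold above DBS (log2 difference 4.80 ± 0.19 SE, limma adjusted p = 4.71e-11), the largest difference of the 45 genes in any comparison. With pseudocounts of 1 and 100 it was 5.22 and 3.70. Rrm2, the regulated subunit of ribonucleotide reductase, stood 2.23-fold above GNPC, while Rrm1, its partner, was 1.95-fold above and Tyms, which makes thymidylate, 1.67-fold above, both short of the fold minimum. Tyms, like Tk1, lay below the array median in all 4 DBS samples, and with a pseudocount of 100 it was 0.66 above DBS in GNPC and not called. Without GNPC 2 or GNPC 3, Rrm1 was 1.05 and 1.02 above GNPC on the log2 scale and was called. By its dimmest passing probe set Rrm2 was 0.78 ± 0.23 SE above GNPC, and by the mean of its probe sets 0.99, neither called.

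Probe sets of 1 gene did not always give the same reading. At the level of probe sets, 48 of the 85 were called higher in tumours against GNPC (5.87% of all probe sets), 73 against DBS (16.1%), and 47 in GNPC against DBS (9.11%), with 0 lower in each. Of the 29 genes with more than 1 passing probe set, calls differed between probe sets in 6, 4 and 9 genes in these comparisons. For Mcm2 the second probe set read 130.5, 141, 113 and 171 in DBS and 854, 1117 and 1163 in GNPC. It placed GNPC 2.76 ± 0.20 SE above DBS, where the brighter one gave 0.61 ± 0.27 SE. Orc3, another ORC subunit, was 1.15 above DBS by its brightest probe set and -0.15 and -0.36 by the others. The dimmer Cdc45 probe set gave 0.35 against GNPC and 0.89 against DBS.

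**Figure D3:**
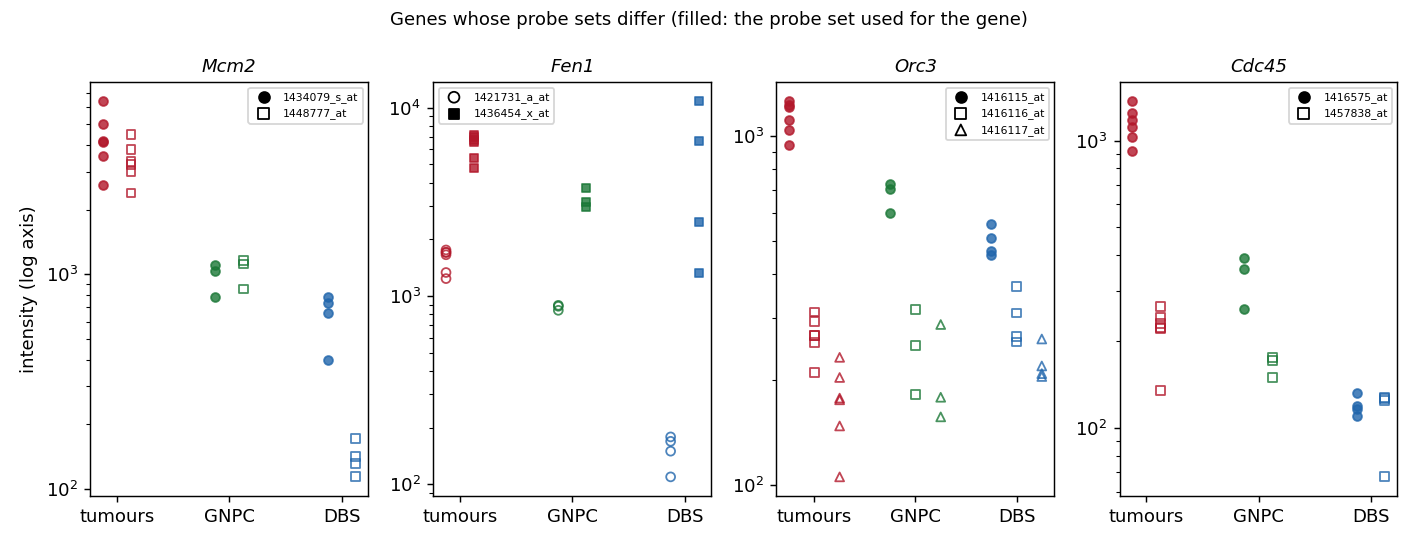
Intensities (log axis) of each passing probe set of Mcm2, Fen1, Orc3 and Cdc45 in tumours, GNPC and DBS, 1 point per sample, with the probe set used for the gene filled. For Fen1 the filled squares spread from 1324 to 10829 in DBS, while the open circles of the other probe set stay between 109.5 and 178.5.

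Among the tumours, samples 6 and 2 held the extreme values of many of the genes. Tumour 6 was the highest of the 6 tumours in 22 of the 45 genes, against 15.7% of all genes, and tumour 2 the lowest in 27, against 18.7%. Of the 29 mitosis genes, tumour 2 was the lowest in 13, but tumour 6 was the highest in only 6. The highest there was tumour 3 in 18 of 29, against 9 of the 45 replication genes and 15.6% of all genes. Among GNPC, sample 1 was the lowest in 34 of 45, against 33.1% of all genes, and in 28 of 29 mitosis genes. Differences between tumours and GNPC were therefore also computed without GNPC 1: 25 genes were called and the median was 1.11, and Mcm7, Gmnn, Gins1 and Gins2, between 0.95 and 0.98, fell short of the fold minimum. Without tumour 6, Gins2 was 0.92 above GNPC and was not called. The median SD of the 45 genes on the log2 scale was 0.21 in tumours, 0.14 in GNPC and 0.21 in DBS, beside 0.22, 0.12 and 0.18 for 3437 genes of similar brightness.

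Other genes of the replication machinery, 45 measured of a list of 47, were called higher in 19 cases in tumours against GNPC, 31 against DBS and 22 in GNPC against DBS, with medians of 0.92, 1.93 and 0.99. The only call in the lower direction was Pole4, a small subunit of polymerase epsilon, 1.10 lower in GNPC than in DBS. The 3 largest differences from GNPC were those of Dscc1, part of the clamp loader used in sister chromatid cohesion, Dtl, which targets Cdt1 for destruction, and Mtbp, a partner in origin firing. Dscc1 ran from 1221 to 1688 in tumours with a median of 1440.5, against 380.5, 389.5 and 407 in GNPC and 64.4, 70.3, 106 and 91.9 in DBS. Its tumour values lay above all normal ones, with log2 differences of 1.83 ± 0.15 SE and 3.87 ± 0.14 SE. Without DBS 2, 31 of this list were still called in tumours and 22 in GNPC against DBS, with medians of 1.87 and 0.99.

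Dtl ran from 2732 to 3240 in tumours with a median of 2808, against 676.5, 1002 and 939 in GNPC and 105, 154, 111 and 172.5 in DBS. The 3 groups were separate, with tumours 1.73 ± 0.16 SE above GNPC and 4.27 ± 0.15 SE above DBS. Mtbp ran from 452.5 to 749 in tumours with a median of 658, against 177, 217 and 223 in GNPC and 129, 115, 118 and 115 in DBS. Its tumours were again the highest samples, by 1.5 ± 0.16 SE and 2.21 ± 0.15 SE. Top2a, the topoisomerase of dividing cells, ran from 7088 to 11932 in tumours with a median of 8880.5, against 3179, 4493 and 4739 in GNPC and 556, 543, 783 and 709.6 in DBS. Its groups were separate too, and tumours were 3.77 ± 0.16 SE above DBS.

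At the other end of that list, Pold4, Fzr1 and Rrm2b differed from GNPC by -0.30, -0.07 and -0.01, and none was called. Pold4, a small subunit of polymerase delta, ran from 76.5 to 155 in tumours with a median of 105, against 105, 132 and 170 in GNPC and 107, 125, 66.3 and 114 in DBS. Fzr1, an activator of the ubiquitin ligase that ends mitosis, ran from 341 to 528 with a median of 405, against 460.0, 420 and 409 in GNPC and 371, 322, 358 and 371 in DBS. Tumours overlapped both normal tissues for each gene.

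Rrm2b, Tk2 and Cul4b differed from DBS by -0.11, -0.11 and -0.04, and none was called. Rrm2b and Tk2 are known as the forms of ribonucleotide reductase and thymidine kinase that serve resting cells, and Cul4b is a ubiquitin ligase scaffold. Rrm2b ran from 745 to 1004 in tumours with a median of 836, against 724, 885.5 and 952 in GNPC and 838, 1057, 825 and 953 in DBS. Tk2 ran from 217 to 549 with a median of 322, against 339, 281 and 264 in GNPC and 468.5, 280.5, 433 and 328 in DBS. Cul4b ran from 3031 to 3813 with a median of 3642, against 3205, 3322 and 3294 in GNPC and 3273, 4555, 3247 and 3457 in DBS. The 3 groups overlapped for each of these genes.

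Between the groups, genes of mitosis moved beside the replication genes. Of 29 measured, 25 were called higher in tumours against GNPC, 29 against DBS and 29 in GNPC against DBS. Their median log2 differences were 1.2, 3.77 and 2.49, beside 1.18, 2.37 and 1.10 for the 45 replication genes. Without DBS 2 all 29 were still called in both comparisons against DBS, with medians of 3.75 and 2.51. Both lists had nearly the same median against GNPC, and against DBS the mitosis list had the larger one, a difference that was not tested.

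**Figure D4:**
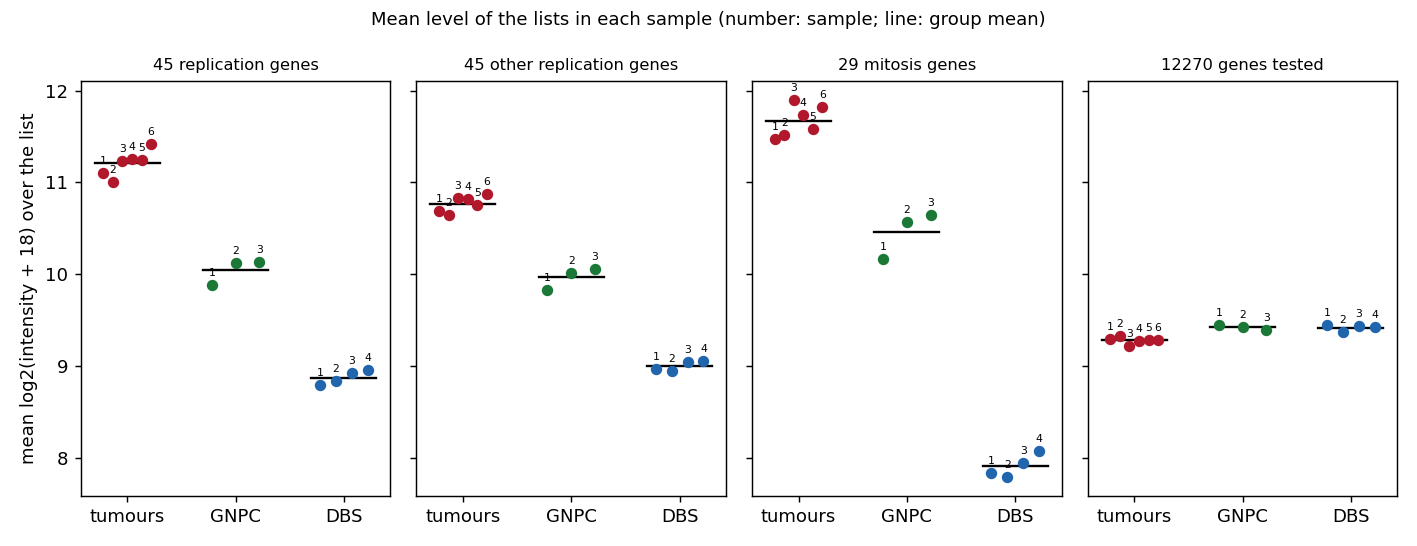
Mean of log2(intensity + 18) over the 45 replication genes, 45 other replication genes, 29 mitosis genes and all 12270 genes tested, with 1 numbered point per sample and a line at each group mean. For the 45 genes the tumours lie between 11 and 11.42, GNPC between 9.88 and 10.13 and DBS between 8.79 and 8.95, while over all genes the groups lie within 9.22 and 9.45.

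Markers of other cells moved with the same groups. Purkinje cell markers summed to between 1125 and 18515 in tumours, 50367 and 60423 in GNPC and 17197 and 20375 in DBS, and 6 of 7 were called lower in tumours than in GNPC, while against DBS 2 were higher and 4 lower. Markers of neuronal maturation summed to between 23122 and 43684, 69766 and 75612, and 118886 and 132008, and 7 of 12 were lower against GNPC and 10 of 12 against DBS. Microglial markers summed to between 6123 and 17435, 5726 and 6930, and 5484 and 5596, with 8 of 11 higher in tumours against each tissue. Markers of oligodendrocytes and of astrocytes were lower in tumours than in GNPC in 5 of 7 and 5 of 8 genes. Against DBS, 2 of the 7 oligodendrocyte markers were lower and 0 higher, and of the 8 astrocyte markers 3 were lower and 2 higher. Over all genes, 6.59% were called higher and 14.2% lower in tumours against GNPC, and 15.5% and 20.9% against DBS. Markers of meninges and fibroblasts summed to between 4049 and 9524, 11276 and 12323, and 7466 and 10249, with 5 of 7 lower in tumours against GNPC and 4 of 7 against DBS. Endothelial markers summed to between 1533 and 2939, 4958.5 and 5529, and 3708 and 4944, with 3 of 6 and 2 of 6 lower. Some markers lay near the floor in a group, such as Mog, of oligodendrocytes, with a mean of 2.45 in DBS. Hoxb5, of brainstem neurons, had means of 2.967 in GNPC and 6.617 in tumours. The part of these cells in the differences of the replication genes was not tested.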

How the data were processed

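Total RNA was amplified by the manufacturer's two-cycle method, per the labels' protocols. The deposited values are linear intensities that the authors scaled so that each array has a trimmed mean of 500, as the files show. The submitters' processing notes list MAS5 without a version. Groups follow the source names in the labels, and each sample came from its own mouse, per the series' design text.

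Controls aside, 34945 of 45037 probe sets have exactly 1 gene symbol. Symbols of the 99 member probe sets matched a current gene table, with 0 changed. Probe sets brighter than the array median on 3 or more of the 13 arrays were kept, and the brightest per gene gave 12270 genes. On log2(intensity + 18), 18 being the 20th percentile of all values, 1 limma model (limma 3.58.1, R 4.3.3, intensity trend) with 3 group means was fitted to the 13 samples together, and p-values were adjusted by Benjamini-Hochberg over all genes. The fit was tested on simulated data. RNA integrity was compared by exact permutation. Probe sets were not tested against background, since detection calls were not used here.

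Members and lists were chosen with earlier results of these data known. Per-sample values are given for the members with the largest difference in each role against either tissue and for those called in no comparison, and, of the other replication genes, for the 3 largest differences each way in the tumour comparisons. Cdt1, Gmnn, Pcna, Orc6 and the single probe sets of Mcm2, Orc3, Orc4, Cdc7, Cdc45, Gins1, Rfc2, Pola2, Rpa2 and Rrm2 were added after their values were seen. Alternatives varied the pseudocount, scaling, filter, choice of probe set, trend, samples fitted and fold minimum. Leaving out DBS 2 for the sample orders and the other gene lists was chosen after seeing the data.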

Additional observations from a re-analysis of the deposited data

Results flagged for a closer look

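In 8 of 90 groups of 4 or 6 samples 1 value stood far from the rest by Dixon's test on linear intensities. The nominal rate of that test, about 1 in 20, holds for independent, normally distributed values. Linear intensities need not be normal and the genes share arrays, so the count cannot be judged against that rate. The same share over all genes tested was not computed, and the values below are descriptions. Tumour 6 was high for Mcm5 at 11857, where the other tumours lay between 8554 and 9681, and for Mcm6 at 10827, against 6967 to 7866. It was also high for Orc6 at 3107, against 1768 to 2252, and low for Orc5 at 1635, against 1858 to 1983. Tumour 2 was low for Mcm7 at 14319, against 17563 to 18381, and tumour 3 high for Rrm1 at 6402, against 4884 to 5277. In DBS, sample 3 was high for Rfc5 at 297, against 220.1 to 228.5, and sample 2 low for Prim2 at 293, against 320 to 324.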

How the results depend on the processing

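Across up to 23 alternatives, 22 of the 29 genes called higher in tumours against GNPC kept the call in every one, as did 37 of 41 against DBS and 17 of 25 in GNPC against DBS. Dropping the fold minimum could not remove a call, and a gene left without a probe set in an alternative was not judged by it. The same counts over all called genes were not computed. In these alternatives the sign never turned for any of the 45 genes in either tumour comparison. Of the single passing probe sets, 1 was negative against GNPC (-0.23) and 2 against DBS (-0.15 and -0.36), all of Orc3. Pseudocounts of 1 and 100 gave medians against DBS of 2.50 and 2.11, and 100 gave 0.95 for GNPC against DBS. Scaling every array to the same median gave 1.42 against GNPC, and dropping the fold minimum gave 44 calls there. Leaving out 1 sample at a time gave 25 (without GNPC 1) to 30 calls and medians of 1.11 to 1.27 against GNPC, 39 (without tumour 6) to 42 and 2.33 to 2.44 against DBS, and 23 to 27 and 1.07 to 1.17 for GNPC against DBS, with 0 lower throughout. Signs turned between GNPC and DBS for Orc4 (0.14 with the mean of probe sets, 0.37 without probe sets ending in _s, _x or _a), Rfc2 (-0.01 with the mean), Fen1 (1.07 with the mean, and -0.78 to 0.22 with 1 sample left out, the highest without DBS 2) and Orc6 (-0.03 to 0.03 with 1 sample left out, 0.01 without GNPC 3 and 0.03 without DBS 4). The cause was not tested. Removing those suffixed probe sets left 39 of the 45 genes. No paired analysis was possible because replicate numbers follow accession order and the labels pair no samples. Arrays number 3 to 6 per group, which limits precision.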
